A study of Mus musculus with 8 samples.

Results

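The genes of voltage-gated sodium channels, voltage-gated calcium channels and the Stac adaptors were followed in cortical mRNA of mice carrying the L192P substitution in Argonaute 2. The members were chosen by symbol, as every protein-coding gene named as a sodium channel α (Scn, ending in a) or β (Scn, ending in b) subunit, a calcium channel α1 (Cacna1), α2δ (Cacna2d) or β (Cacnb) subunit, or as Stac, Stac2 or Stac3. The rule found 35 of 55416 genes in the count table, of which 21646 are protein-coding. They are 10 sodium channel α, 4 sodium channel β, 10 calcium channel α1, 4 calcium channel α2δ, 4 calcium channel β and 3 Stac genes. One group of mice was heterozygous for the knock-in (AGO2_L192P/+, here L192P) and the other was wild type (WT), with 4 libraries of cerebral cortex each. The line was made by CRISPR/Cas editing in zygotes of C57BL/6JUke mice and bred onward with C57/Bl6 mice, and each mating had 1 heterozygous parent. Heterozygous pups were under-represented among live births in that breeding, so the L192P animals are those that were born. The labels and methods give neither the sex nor the age of the animals, and no treatment.

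A voltage-gated sodium channel is built from 1 large pore-forming α subunit, which opens upon depolarization and carries the rising phase of the action potential, and from β subunits, small membrane proteins with an immunoglobulin-like domain that modify gating and place the channel at the axon initial segment. In calcium channels the α1 subunit forms the pore, while the α2δ and β subunits promote its transport to the membrane and tune its gating, and calcium entry couples depolarization to transmitter release, plasticity and transcription. Stac proteins are cytoplasmic adaptors that bind L-type calcium channels, and Stac3 is required for excitation-contraction coupling in skeletal muscle. Argonaute 2, guided by the miRNA it holds, pairs with complementary stretches of mRNAs and represses them.

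The libraries held 20396357 to 43575900 counts, WT replicate 2 being the deepest, and the 35 members took 0.365% to 0.434% of the counts of a library. The transcript of the edited gene, Ago2, was at 2398, 2273, 2273 and 2222 normalized counts in L192P replicates 1 to 4 and at 2380, 2083, 2207 and 2316 in WT replicates 1 to 4, so its level did not separate the groups (log2 fold change 0.03, SE 0.06, DESeq2 adjusted p = 0.968), which a point substitution need not change. A normalized count is a read count divided by the size factor of its library. Replicate 1 of both genotypes stood apart from the other 6 libraries, with Xist at 0.934 and 1.82 normalized counts against 5185 to 7257. Raw counts on the Y chromosome were 3547 and 3534 there, against 186 to 573 in the others. This is the pattern of male libraries beside female ones, so a fit with replicates 2 to 4 only holds a single sex pattern. Values from that fit are given for each named member or partner whose call they changed. Libraries with the same replicate number deviated together from their group means, so values from a fit with that number as a block are given where the outcome changed.

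Of the 35 members, 34 received an adjusted p, and Scn4a, the skeletal muscle channel, did not, with 0 to 3 counts in a library. Among these 34, 6 members passed an adjusted p of 0.05 in DESeq2 (17.6%), against 1.36% of all 18627 genes tested. 4 of them fell in L192P, Stac2, Scn4b and Cacna2d3 among them, in a background where 0.569% of all genes were called lower, and 2 rose, Scn9a among them, in a background where 0.789% were called higher. In 6 members the 4 libraries of one genotype lay outside the range of the other (17.6%), against 5.97% of all genes tested. Among these were Stac2 and Scn4b with lower and Scn9a and Stac with higher levels in L192P. With 4 libraries against 4, an exact permutation test cannot give a p under 0.0286, two-sided, the value that such a separation reaches.

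The number of calls depended on the test. The edgeR quasi-likelihood test called 2 members, Stac2 among them, where it called 0.314% of all genes. limma voom also called 2 members with Stac2 among them, where it called 0.266% of all genes. With the replicate block in DESeq2, 5 members were called (4 lower, 1 higher), Scn9a being lost at an adjusted p of 0.0503, against 4.25% of all genes in that fit. With replicates 2 to 4 only, 7 members were called (6 lower, 1 higher), against 3.46% of all genes. That fit lost Scn9a (adjusted p = 0.0734) and added Cacna1a and Cacna1i.

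**Figure D1:**
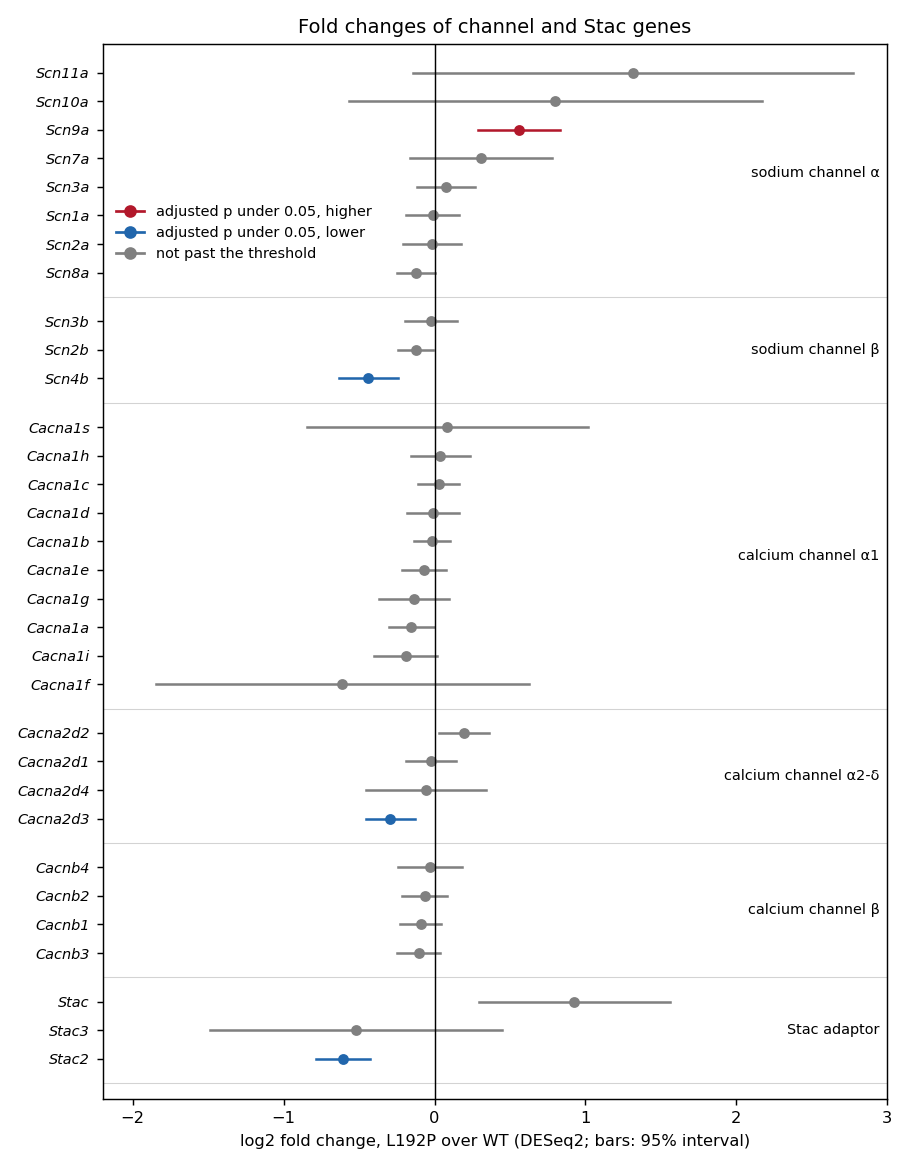
Log2 fold change of L192P over WT for the members described in the text, ordered within each group of genes; points are DESeq2 estimates from 4 libraries per genotype and bars are 95% intervals. Scn9a is called on the right of 0, Stac2, Scn4b and Cacna2d3 on the left, and the widest bars belong to the genes with the fewest counts.

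Among the Stac adaptors, Stac2 was lower in L192P, Stac leaned the other way without passing the test, and Stac3 was near the limit of detection. Stac2 (ENSMUSG00000017400, chr11:97927446-97944288 in GRCm39, minus strand) was at 1916, 2279, 2278 and 2356 normalized counts in L192P replicates 1 to 4 and at 2862, 3715, 3416 and 3445 in WT replicates 1 to 4. The highest L192P library lay below the lowest WT library, and replicate 1 was the lowest of its group in both genotypes. The level fell by 34.3% (log2 fold change -0.61, SE 0.09, DESeq2 adjusted p = 4.71e-08), and it passed the threshold in 17 of 17 alternative fits, with log2 fold changes between -0.68 and -0.55.

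Stac (chr9:111390497-111519429, minus strand) was at 75.7, 53.5, 66.9 and 51.5 normalized counts in L192P replicates 1 to 4 and at 46.4, 19.8, 46.7 and 18.7 in WT replicates 1 to 4. Every L192P library was above every WT library, and in WT replicates 1 and 3 were well above replicates 2 and 4. The difference did not pass the test (log2 fold change 0.93, SE 0.32, DESeq2 adjusted p = 0.152), and it did without WT replicate 1 (log2 fold change 1.15, adjusted p = 0.0321). Stac rests on 16 to 81 reads in a library. Stac3 rests on 5 to 47 reads, with normalized counts of 15.9, 11.4, 16.1 and 5.99 in L192P replicates 1 to 4 and 22.8, 26.5, 9.78 and 10.5 in WT replicates 1 to 4. The groups of Stac3 overlapped, and its 95% interval of the log2 fold change ran from -1.48 to 0.44. Per kilobase of exon, Stac2 was at 869 ± 92.5 normalized counts in WT and 571 ± 51.1 in L192P (SD, n = 4). The length used joins the exons of all annotated transcripts of a gene, so ranks between genes on this scale depend on the annotation. On that scale Stac was at 11.5 ± 5.50 in WT and 21.6 ± 3.99 in L192P, and Stac3 at 5.34 ± 2.62 and 3.79 ± 1.46, so Stac2 made up nearly all Stac mRNA in both genotypes.

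The genes whose pattern over the 8 libraries was most like that of Stac2 were Ddn, Soat1, Cdk16, Alg12 and Ppm1h. Their Pearson correlation with Stac2 on log2(normalized count + 1) was 0.986, 0.985, 0.981, 0.978 and 0.977, the highest of 11672 protein-coding genes with a mean of at least 100 normalized counts. This is a description over 8 libraries that also share the genotype difference and their depth. Ddn, which encodes a protein of dendrites and the postsynapse, had a log2 fold change of -0.43 (SE 0.08). The cyclin-dependent kinase gene Cdk16 had one of -0.35 (SE 0.07). Genes picked to follow Stac2 in these same libraries share its fall by that choice, so these values are no further result.

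Among the sodium channel β genes, Scn4b was called, and Scn2b and Scn3b were not. Scn4b encodes the β4 subunit, whose cytoplasmic tail is linked to the resurgent sodium current and which is abundant in the striatum. Scn4b (ENSMUSG00000046480, chr9:45049595-45065452, plus strand) was at 7779, 6710, 6282 and 8179 normalized counts in L192P replicates 1 to 4 and at 9059, 9809, 8879 and 11526 in WT replicates 1 to 4. Replicate 4 was the highest and replicate 3 the lowest in both genotypes, and the groups did not overlap. The level fell by 26.3% (log2 fold change -0.44, SE 0.10, DESeq2 adjusted p = 0.00267). Leaving out any 1 of the 8 libraries kept it past the threshold, whereas edgeR gave an adjusted p of 0.0876 and limma voom one of 0.0935.

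Scn2b and Scn3b encode the β2 and β3 subunits. Scn2b was at 8272, 7538, 7518 and 8160 normalized counts in L192P replicates 1 to 4 and at 8124, 8729, 8553 and 8947 in WT replicates 1 to 4, so that 2 L192P libraries lay above the lowest WT library. It did not pass the test (log2 fold change -0.13, SE 0.06, DESeq2 adjusted p = 0.426). For Scn3b the 95% interval of the log2 fold change (-0.02) ran from -0.20 to 0.15. Scn2b and Scn4b lie 8.2 kb apart on the plus strand of chromosome 9, and of these neighbours Scn4b alone was called, a difference between the genes that was not tested.

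**Figure D2:**
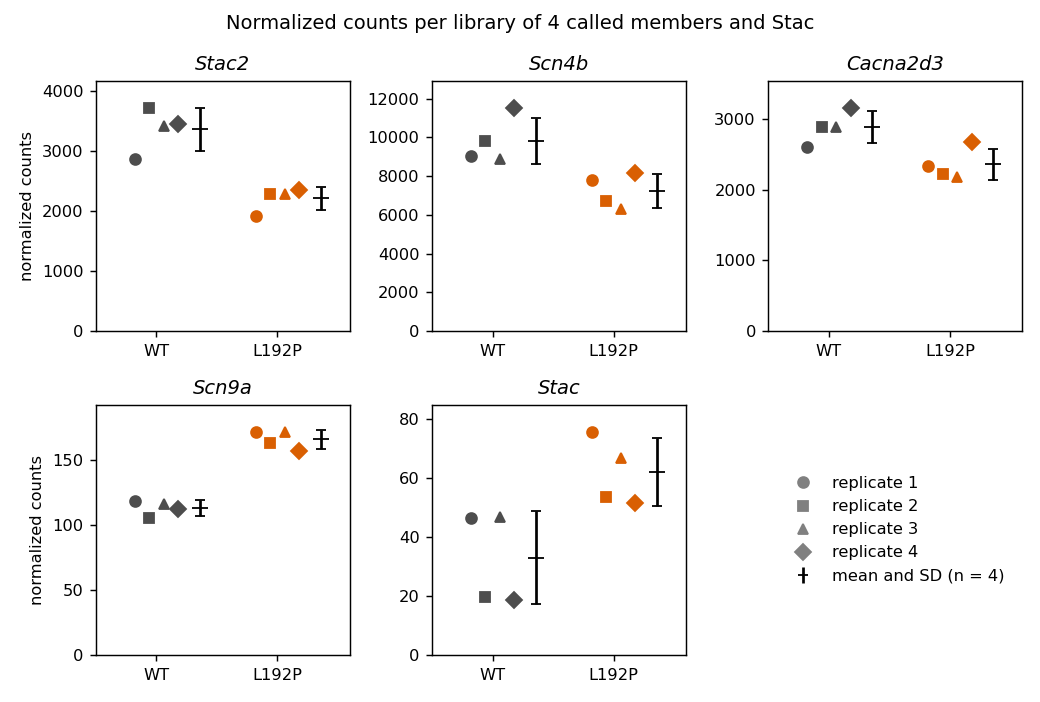
Normalized counts per library of 4 called members (Stac2, Scn4b, Cacna2d3 and Scn9a) and Stac in WT (grey) and L192P (orange); symbols mark the replicate number, and black bars are mean and SD of 4 libraries. The groups do not overlap except for Cacna2d3, where L192P replicate 4 (2676) lies above WT replicate 1 (2604).

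Among the sodium channel α genes, Scn9a, of low abundance in this tissue, was higher in L192P, while the major neuronal channels were not called. Scn9a encodes a channel best known from peripheral sensory neurons, where it amplifies small depolarizations. Scn9a (ENSMUSG00000075316, chr2:66310424-66465306, minus strand) was at 172, 163, 172 and 157 normalized counts in L192P replicates 1 to 4 and at 118, 105, 116 and 112 in WT replicates 1 to 4. Both groups were narrow and did not overlap. The level was 1.47-fold higher (log2 fold change 0.56, SE 0.14, DESeq2 adjusted p = 0.0102), but 7 of 17 alternatives kept the call. It was lost in edgeR and limma voom (adjusted p = 0.0702 and 0.0659), with the replicate block, with replicates 2 to 4 only, and without L192P replicates 1, 2 or 3 (0.0676, 0.0613 and 0.0901) or WT replicates 2, 3 or 4 (0.130, 0.0599 and 0.0703), while its log2 fold change stayed between 0.52 and 0.58. Exons of Gm13629 lie on the opposite strand over exons of Scn9a and of Scn1a, and whether reads were counted by strand is not given in the sources used here. Gm13629 was at 140, 109, 134 and 87.4 normalized counts in L192P replicates 1 to 4 and 97.4, 96.6, 101 and 92.5 in WT replicates 1 to 4, and was not called (DESeq2 adjusted p = 0.687). Gm35265 also overlaps Scn9a exons in this way, and its counts are not given here. The opposite-strand gene at Scn4b, Gm39327, was at 0 to 1.13 normalized counts in a library, Lrtm1 at Cacna2d3 at 0 to 1.17, and Gm43236 at Stac at 0 in every library, while counts of Gm63018 at Cacna2d3 are not given here. For all of these, reads of a gene and its opposite-strand partner cannot be told apart if strand was not used.

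The 3 α genes that dominate adult brain did not pass the test. Scn2a, the channel of excitatory axons and the most abundant pore-forming member per kilobase (529 ± 63.1 normalized counts per kb in WT and 523 ± 59.9 in L192P, SD, n = 4), was at 7275, 5750, 6692 and 7497 normalized counts in L192P replicates 1 to 4 and at 7483, 5747, 6811 and 7492 in WT replicates 1 to 4. Libraries with the same replicate number were close to each other across genotypes, and the log2 fold change was -0.02 (95% interval -0.21 to 0.18). Scn8a, the main channel of mature axon initial segments and nodes of Ranvier, had a log2 fold change of -0.12 (95% interval -0.25 to 0.0016, DESeq2 adjusted p = 0.539). Scn1a, the channel of fast-spiking interneurons, had one of -0.01 (95% interval -0.19 to 0.16). Scn3a, prominent before birth, was at 0.08 (95% interval -0.12 to 0.27).

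Other α genes were sparse. Scn7a, which encodes a sodium-sensing relative of the family, rests on 40 to 80 reads in a library (log2 fold change 0.31, 95% interval -0.16 to 0.78). Scn10a and Scn11a, channels of nociceptive neurons, rest on 2 to 13 and 3 to 23 reads, with 95% intervals of the log2 fold change from -0.57 to 2.17 and -0.14 to 2.77, so a change of these genes was not detectable at this depth. Scn10a and Scn11a are neighbours on chromosome 9, 34.4 kb apart, and Scn9a lies between Scn1a (38.9 kb) and Scn7a (38.5 kb) on chromosome 2. As a share of the summed α level per kilobase, Scn9a was at 0.87% to 1.07% in L192P and 0.60% to 0.67% in WT, so its share was higher in every L192P library.

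**Figure D3:**
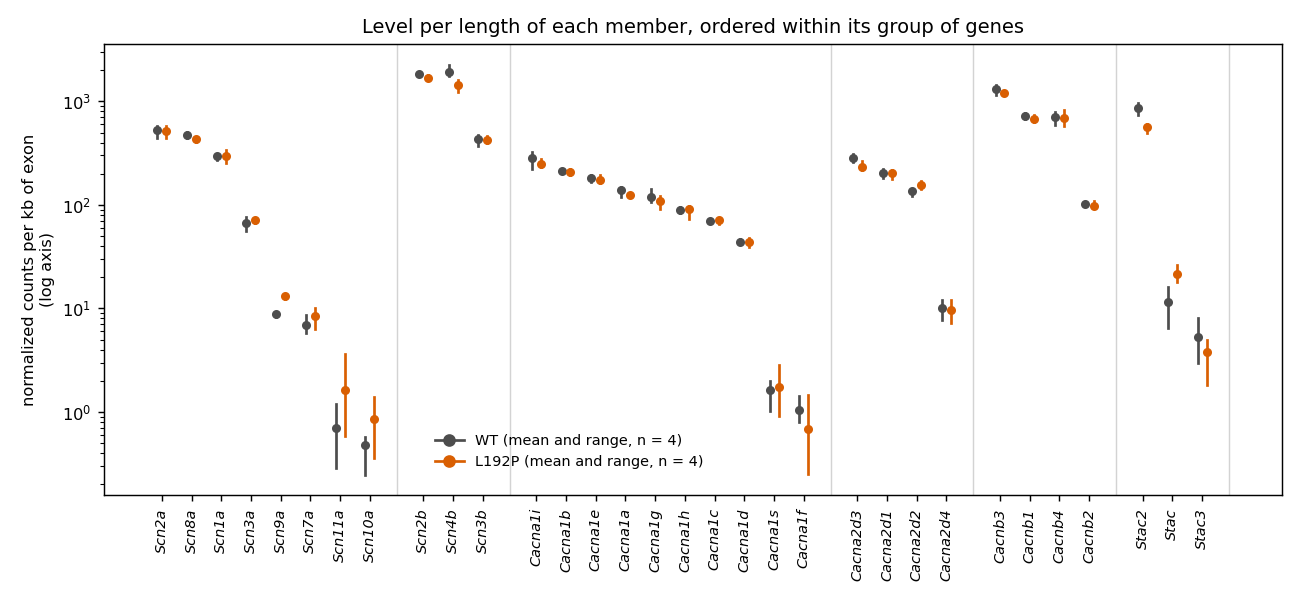
Normalized counts per kilobase of exon (log axis) for the members described in the text, ordered within each group of genes; points are means and lines the range of 4 libraries in WT (grey) and L192P (orange). Scn9a (13.1 in L192P) lies well below Scn2a, Scn8a and Scn1a in both genotypes, and Stac2 (571) lies far above Stac (21.6) and Stac3 (3.79).

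None of the 10 calcium channel α1 genes passed the DESeq2 test, while 1 of them had an unadjusted p under 0.05, as had 9.44% of all genes tested, and neither edgeR nor limma voom called any. Their median log2 fold change was -0.04, with 3 genes above and 7 below 0, and their summed normalized counts overlapped (14600 to 16830 in L192P and 15560 to 17620 in WT). Cacna1a, the P/Q-type channel of presynaptic terminals, was at 2399, 2372, 2324 and 2416 normalized counts in L192P replicates 1 to 4 and at 2263, 2845, 2712 and 2765 in WT replicates 1 to 4. WT replicate 1 lay below all 4 L192P libraries and the other 3 WT libraries above them. The log2 fold change was -0.15 (SE 0.08, DESeq2 adjusted p = 0.501) over 8 libraries, -0.22 without WT replicate 1 (adjusted p = 0.0111) and -0.23 with replicates 2 to 4 only (adjusted p = 0.0145).

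Cacna1i, a T-type channel of low-threshold bursting and the most abundant α1 gene per kilobase (284 ± 44.9 normalized counts per kb in WT and 249 ± 20.1 in L192P, SD, n = 4), was also low in WT replicate 1. It was at 2351, 2301, 2431 and 2743 normalized counts in L192P replicates 1 to 4 and at 2192, 3166, 2774 and 3091 in WT replicates 1 to 4. The value of WT replicate 1 was again the lowest of all 8 libraries. The log2 fold change was -0.19 (SE 0.11, DESeq2 adjusted p = 0.596), and it was -0.30 without WT replicate 1 (adjusted p = 0.0117) and -0.28 with replicates 2 to 4 only (adjusted p = 0.0232).

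The other presynaptic and L-type channels differed little. Cacna1b (N-type) had a log2 fold change of -0.02 (95% interval -0.14 to 0.11), and Cacna1e (R-type) one of -0.07 (-0.22 to 0.08). The L-type genes Cacna1c and Cacna1d, whose channels bind Stac proteins, were at 0.03 (-0.11 to 0.16) and -0.01 (-0.18 to 0.17), so a change beyond these bounds in either direction is outside their intervals. The T-type genes Cacna1g and Cacna1h were at -0.14 (-0.37 to 0.09) and 0.04 (-0.16 to 0.23). Cacna1f, the retinal channel, and Cacna1s, the skeletal muscle channel, were at 2.28 to 13.2 and 7.47 to 23.1 normalized counts in a library, too few to resolve a change.

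Of the 4 α2δ genes, which encode extracellular subunits and, for the α2δ-1 and α2δ-2 proteins, the binding sites of gabapentinoid drugs, Cacna2d3 was called. Cacna2d3 (ENSMUSG00000021991, chr14:28626892-29444600, minus strand) was at 2337, 2224, 2184 and 2676 normalized counts in L192P replicates 1 to 4 and at 2604, 2891, 2887 and 3155 in WT replicates 1 to 4. L192P replicate 4 lay above WT replicate 1, so the groups overlapped, although each L192P library was below the WT library of its number. The level fell by 18.3% (log2 fold change -0.29, SE 0.08, DESeq2 adjusted p = 0.0347), and 7 of 17 alternatives kept the call, those with the replicate block (adjusted p = 0.000165) and with replicates 2 to 4 only among them. The call was lost in edgeR and limma voom (0.162 and 0.155), with total-count size factors (0.0525), with independent filtering off (0.0603), and without L192P replicates 1, 2 or 3 (0.0602, 0.199 and 0.193) or WT replicates 2, 3 or 4 (0.125, 0.148 and 0.251).

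Cacna2d2 was at 1163, 1271, 1125 and 1345 normalized counts in L192P replicates 1 to 4 and at 1133, 968, 1109 and 1078 in WT replicates 1 to 4. One L192P library lay within the WT range, and the difference did not pass the test (log2 fold change 0.20, SE 0.08, DESeq2 adjusted p = 0.343). Cacna2d1 had a log2 fold change of -0.02 (95% interval -0.19 to 0.14) and Cacna2d4, with 69.5 to 115 normalized counts in a library, one of -0.06 (-0.46 to 0.34). The 4 calcium channel β genes, whose cytoplasmic products bind the α1 subunit, were all below 0 and none was called by DESeq2, edgeR or limma voom, with 0 at an unadjusted p under 0.05. Their log2 fold changes were -0.09 for Cacnb1, -0.07 for Cacnb2, -0.11 for Cacnb3 and -0.03 for Cacnb4, and no 95% interval reached beyond -0.25. Cacnb1 lies 13.6 kb from Stac2 on the minus strand of chromosome 11, and it was at 3596 to 4284 normalized counts in L192P and 3919 to 4426 in WT. Of the 28 members tested and not called, 16 had a 95% interval within 0.3 log2 units of 0.

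**Figure D4:**
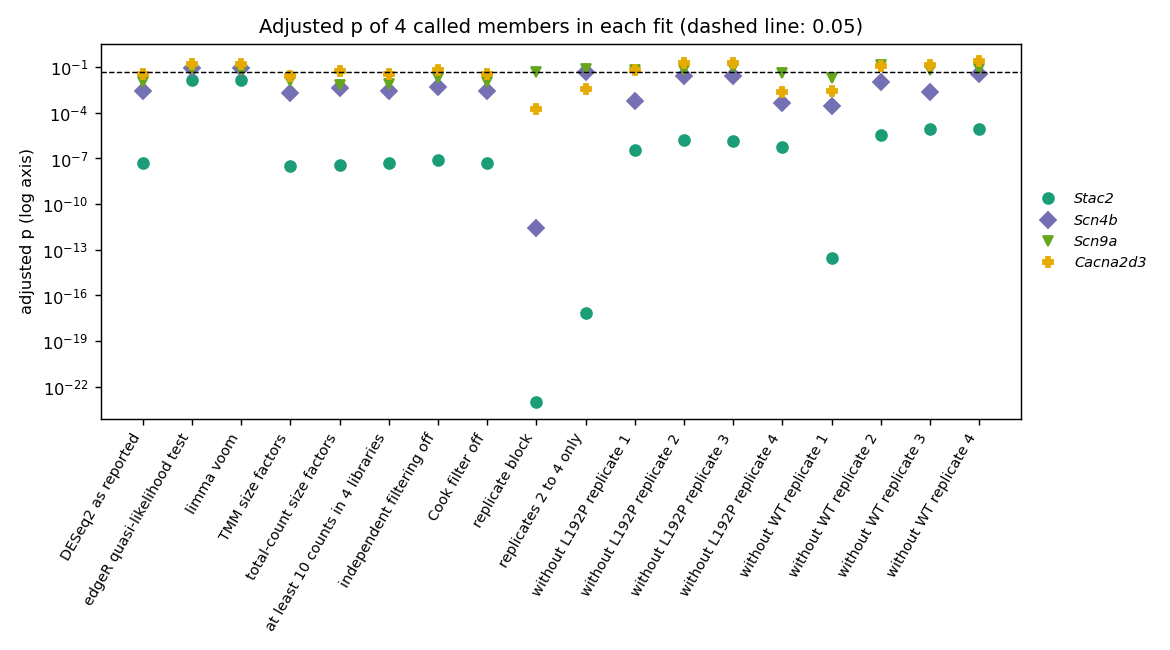
Adjusted p (log axis) of Stac2, Scn4b, Scn9a and Cacna2d3 in the fit as reported and in 17 alternatives; the dashed line is 0.05. Stac2 lies under the line in every fit, Scn4b in all but edgeR and limma voom, and Scn9a and Cacna2d3 cross it.

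Proteins that place, bind or modify these channels are encoded by other genes. In each of 2 lists of those, 1 gene passed the test, where 1.36% of all genes tested did. Of 25 sodium channel partners (fibroblast growth factor homologous factors, ankyrins, the NALCN leak channel complex and others), 1 was called, with 7 at an unadjusted p under 0.05 (9.44% over all genes tested), and 13 log2 fold changes were above and 12 below 0. Unc80, a large subunit of the NALCN complex, was at 5579, 4617, 5559 and 5441 normalized counts in L192P replicates 1 to 4 and at 4541, 4199, 4507 and 4581 in WT replicates 1 to 4. All L192P libraries were above all WT libraries (log2 fold change 0.25, SE 0.07, DESeq2 adjusted p = 0.0396). Without L192P replicates 1, 3 or 4 or WT replicates 2, 3 or 4 the adjusted p of Unc80 was 0.108, 0.195, 0.178, 0.217, 0.149 and 0.123, and with replicates 2 to 4 only 0.0511. In edgeR and limma voom the adjusted p of Unc80 was 0.163 and 0.172, and with independent filtering off 0.0688. With the replicate block 4 partners were called, Unc80 (adjusted p = 9.73e-05), Camk2d (log2 fold change 0.34, adjusted p = 2.59e-05) and Calm3 (-0.14, adjusted p = 0.00687) among them. That fit called 4.25% of all genes tested. Without the block Camk2d, a calcium/calmodulin-dependent kinase gene, had a log2 fold change of 0.33 (adjusted p = 0.0748) and Calm3, a calmodulin gene, one of -0.14 (adjusted p = 0.107). With replicates 2 to 4 only, both were called, Camk2d at 0.42 (adjusted p = 2.43e-05) and Calm3 at -0.16 (adjusted p = 0.0448), in a fit that called 3.46% of all genes tested.

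Of 40 calcium channel partners (γ subunits, active zone proteins, RGK proteins, calmodulins and calcium release and removal proteins), 1 was called, with 11 at an unadjusted p under 0.05 (again beside 9.44% over all genes), and 13 log2 fold changes were above and 27 below 0, with a median of -0.07. Cacng5, an auxiliary subunit of AMPA receptors, was at 388, 431, 337 and 407 normalized counts in L192P replicates 1 to 4 and at 309, 257, 339 and 261 in WT replicates 1 to 4. L192P replicate 3 lay below WT replicate 3, and the other L192P libraries lay above all of WT (log2 fold change 0.43, SE 0.12, DESeq2 adjusted p = 0.0428). The call was lost with the replicate block (adjusted p = 0.0529, 4 other partners being called, beside 4.25% of all genes tested), with replicates 2 to 4 only (0.0562) and without L192P replicates 1, 2 or 4 (0.0824, 0.269 and 0.183) or WT replicates 2 or 4 (0.277 and 0.261). It was also lost in edgeR and limma voom (adjusted p = 0.1622 and 0.1445) and with independent filtering off (0.07435). Rrad, an RGK protein that lowers calcium current, was at 39.2, 61.5, 54.2 and 40.7 normalized counts in L192P replicates 1 to 4 and 26.4, 31.1, 28.2 and 26.9 in WT replicates 1 to 4. Its groups did not overlap and it did not pass the test (log2 fold change 0.78, SE 0.27, DESeq2 adjusted p = 0.151).

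Several marker genes of other brain regions moved with genotype, and in bulk tissue fewer cells of a type cannot be told apart from less RNA per cell. All 8 striatal projection neuron markers had a lower mean in L192P, with summed normalized counts of 33120 to 41430 against 44280 to 54980 and Penk (log2 fold change -0.51) called lower by DESeq2. None of the 8 was at 0, and the L192P library lowest in this sum, replicate 3, was also the lowest in Scn4b, while WT replicate 4 was the highest in both. Cacna2d3 was likewise lowest in L192P replicate 3 and highest in WT replicate 4. The order of L192P replicates 1 and 2 differed, replicate 2 being the higher in the sum and the lower in both genes. All 7 thalamic markers had a higher mean in L192P, with sums of 4401 to 8049 against 3738 to 4200, Gbx2 (log2 fold change 1.99) and Calb2 (1.11) being called, and L192P replicates 1 and 3 the highest at 6627 and 8049. The 7 hypothalamic markers summed to 217.4 to 1231 in L192P and 119.5 to 258.7 in WT, with Avp and Oxt called higher. Of these 7, 6 had a higher mean in L192P and 1 a lower one, and 5 received an adjusted p. The part of tissue composition in the values of Scn4b, Stac2, Cacna2d3 and Scn9a was not tested.

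The defining markers of cortex were present in all libraries. The excitatory neuron list (5 genes, all with a lower mean in L192P, none called) summed to 78720 to 84610 in L192P and 78640 to 99150 in WT, the upper layer list (5 genes) to 15800 to 17840 and 16800 to 18540, and the deep layer list (7 genes, Syt6 called lower at a log2 fold change of -0.32) to 10730 to 12150 and 10960 to 13070. The GABAergic interneuron list (8 genes) summed to 30560 to 33920 and 28370 to 32570, with Gad2 called higher (0.34), and the parvalbumin interneuron list (6 genes), a class rich in Scn1a and Scn4b, to 10810 to 11720 and 11130 to 11690 with no gene called. In the GABAergic list 6 genes had a higher mean in L192P and 2 a lower one. The counts were 3 and 3 in the parvalbumin list and 2 and 5 in the deep layer list. Sums also overlapped for hippocampus (4417 to 6283 against 4143 to 5887), astrocytes (24200 to 38840 against 25850 to 38170), oligodendrocytes (88010 to 123900 against 89790 to 128000) and their precursors (2039 to 2970 against 2146 to 3122). They overlapped as well for microglia (3624 to 6584 against 3785 to 4910), endothelium and mural cells (445.6 to 1278 against 517.2 to 982.3), choroid plexus (16490 to 37900 against 14240 to 32320) and blood (1374 to 3230 against 1543 to 2371). Every gene of the microglial, endothelial and mural, meningeal and skeletal muscle lists had a higher mean in L192P, and every oligodendrocyte gene a lower one. The meningeal list overlapped too (774.5 to 1376 against 659.1 to 938.8), with Slc22a6 called higher (0.64). Among replicates 2 to 4, every L192P sum lay above WT for microglia (5455 to 6584 against 4787 to 4910). So did those for blood (2463 to 3230 against 1543 to 2082) and meninges (1017 to 1376 against 659.1 to 938.8). The excitatory neuron sum lay below WT there (80890 to 84610 against 92830 to 99150), and the other lists of this paragraph overlapped. Sums overlapped for skeletal muscle markers (307.9 to 370.1 against 303.2 to 350.2) and peripheral sensory neuron markers (171.9 to 235.2 against 174.9 to 204.9), tissues in which the rarer channels are better known. Of the peripheral sensory neuron genes, 4 had a higher mean in L192P and 1 a lower one. Whether such tissue added to the reads of the rarer channels was not tested. No marker on any of these lists was at 0 in all 8 libraries.

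**Figure D5:**
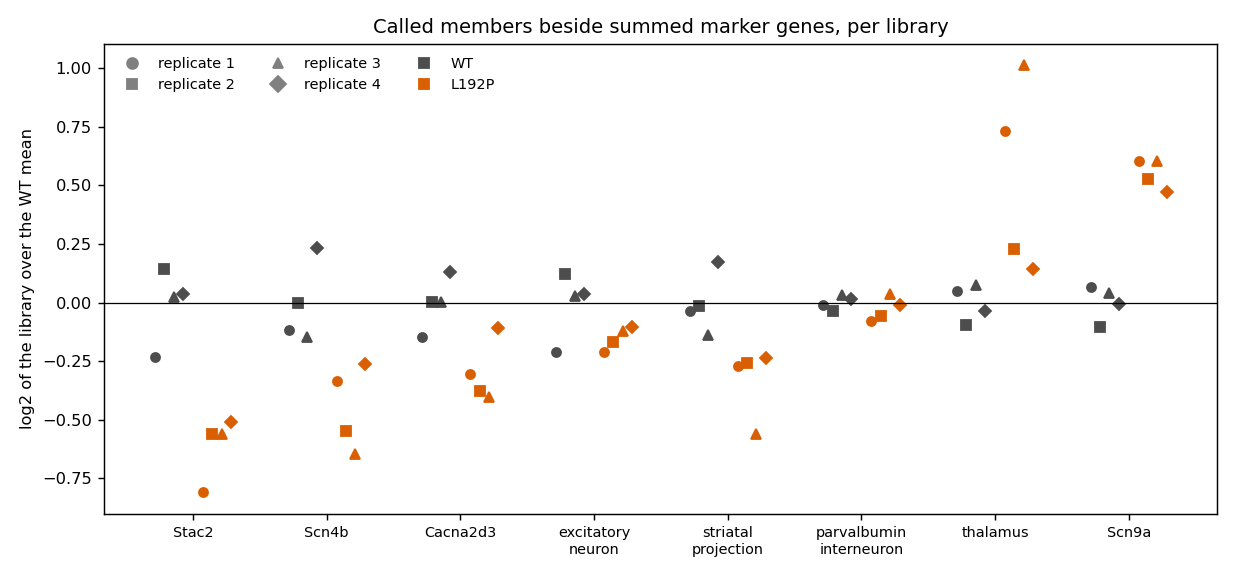
Log2 of each library over the WT mean for Stac2, Scn4b, Cacna2d3 and Scn9a and for 4 summed marker lists; colours give the genotype and symbols the replicate number. The striatal sum lies below WT in all 4 L192P libraries and the thalamic sum above, the parvalbumin sum overlaps, and the Scn9a points of L192P lie closer together than those of the thalamic sum.

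Since Argonaute 2 acts through miRNA seeds, the 3′ UTRs of the members were searched for the seed sites of 5 miRNAs, picked with the study's text and earlier results known. Others that the study names were not searched, so the counts hold for these 4 seeds alone. The mature sequences, from RefSeq, are shown to let the sites be read against them, with the seed (bases 2 to 8) in capitals; the first pair shares its seed.
miR-92a-3p: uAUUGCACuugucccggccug
miR-92b-3p: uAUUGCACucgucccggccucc
miR-29a-3p: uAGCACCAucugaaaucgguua
miR-409-3p: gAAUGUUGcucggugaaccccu
miR-5121: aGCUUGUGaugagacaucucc

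A site was an exact match to the 7 bases that pair with the seed, on the transcript strand only, within the canonical 3′ UTR of each gene, and 31 of the 34 tested members had such a UTR of at least 100 bases. The miR-92 site (GTGCAAT) was in 7 members, Cacna1i, Cacna2d1, Cacnb2, Scn3a, Scn3b, Scn7a and Scn8a, and in 8.31% of 14414 UTRs of tested genes. The miR-29a site (TGGTGCT, 17.24% of UTRs) was in Scn10a and Scn3b, and the miR-409 site (CAACATT, 11.33%) in Cacna1e, Cacnb4 and Scn3a. The miR-5121 site (CACAAGC, 11.57%) was in 5 members, Cacna1g, Cacna1s, Scn2b, Scn3b and Scn8a. None of the 6 called members held any of the 4 sites, the called members having UTRs of 330 (Cacna2d3) to 3648 bases (Scn4b).

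In 3 members the miR-92 site was followed by an A, the form usually bound best, and these sites are shown with their flanks, the site in capitals and all on the plus strand of GRCm39.
Scn8a, chr15:100941016-100941044: tttgttccaatGTGCAATaaattctaacc
Cacna1i, chr15:80282210-80282238: ttttggtctttGTGCAATaatcaacgtcc
Scn3b, chr9:40201267-40201295: gactgttctaaGTGCAATattctttagcc
Long UTRs hold more sites by length alone. Among UTRs within 20% of the length of each, 19.4% held the miR-92 site for Scn8a, 10.8% for Cacna1i and 14.2% for Scn3b. The log2 fold changes of these genes were -0.12, -0.19 and -0.02, none of them called in the fit of all 8 libraries. A match of letters describes a sequence and is not a measured binding site.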

How the data were processed

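Per the labels, RNA of cerebral cortex was made into stranded mRNA libraries. The authors aligned reads with STAR to GRCm39, counted them per gene with featureCounts and deposited raw counts. Per the submitters' processing notes the versions were STAR 2.7.9a, featureCounts 1.5.1 and DESeq2 1.40.2. The strand setting and annotation release are not given in the sources used here. A deposited table of counts divided by size factors was not used here. No pooling is stated, and p-values measure the spread between these libraries.

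From the deposited counts, DESeq2 1.42.0 (R 4.3.3) compared the genotypes, with no other term, over all 55416 genes, with Benjamini-Hochberg adjustment, independent filtering at 0.05 and calls at an adjusted p under 0.05. 14049 genes with counts were set aside by the independent or Cook filter. Fold changes are unshrunken, and intervals are 1.96 SE, covering counting error and the spread between libraries. Alternatives were edgeR 4.0.16, limma 3.58.1 (voom), TMM and total-count size factors, no independent filtering, no Cook filter, a minimum of 10 counts in 4 libraries, the replicate block, replicates 2 to 4 only, and leaving out each library. The programs were tested on simulated counts.

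Over 13422 genes with a mean of at least 50 normalized counts, deviations from the group mean correlated at 0.63, 0.38, 0.23 and 0.33 between libraries numbered 1 to 4, and at -0.38 to 0.14 between different numbers. The labels do not say what the numbers stand for, and the pairing was taken from these values. No libraries of the same genotype were duplicates of each other (chi-square per degree of freedom 5.52 to 22.59). Pairs across genotypes were not compared in this way.

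The members, gene lists and tests were chosen with earlier results of these data known. Given in every library were members called here, those called in any alternative other than leaving out a library, those with an unadjusted p under 0.05, the Stac genes, and the most abundant pore-forming and auxiliary gene per kb. Of partner and marker lists, called genes and up to 3 with the smallest p were named. Scn8a and the genes on the opposite strand were named after their values were seen. Positions, exon lengths and 3′ UTRs are from GENCODE M39, in which 98.8% of identifiers were found. Some members and marker genes are not reported here.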

Additional observations from a re-analysis of the deposited data

Results flagged for a closer look

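A library was set apart where its gap to the nearest other library of its genotype, as a share of the range of all 4, exceeded Dixon's 95% limit, which chance passes in about 1 of 20 groups. Of 68 groups (34 members in both genotypes) 3 were set apart, where chance gives about 3.4. Cacna1h, a T-type channel gene, was at 804.6 normalized counts in L192P replicate 2 and at 1058 to 1074 in the other L192P libraries. Cacnb2, a cytoplasmic β subunit gene, was at 1613 in L192P replicate 1 and at 1358 to 1391 in the others. Scn10a was at 2.34 in WT replicate 4 and at 5.08 to 5.46 in the other WT libraries, values that rest on few reads. None of the 3 genes was called, and no called member had a library set apart.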

How the results depend on the processing

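The direction of the 6 called members was kept in all 17 alternatives. 2 members were called by edgeR and 2 by limma voom, and 3 to 9 when 1 library was left out, 9 being without WT replicate 1 and 3 without L192P replicates 1 or 3 or WT replicates 2, 3 or 4. Sodium channel partners called were 0 with edgeR, 0 with limma voom, 0 with independent filtering off, 4 with the replicate block, 3 with replicates 2 to 4 only and 0 to 3 when 1 library was left out, and calcium channel partners 0, 0, 0, 4, 7 and 0 to 7. Of all genes tested, edgeR called 0.314%, limma voom 0.266%, no independent filtering 0.603%, the replicate block 4.25% and replicates 2 to 4 only 3.46%. 3 sodium and 7 calcium channel partners were called without WT replicate 1, a fit that called 3.24% of all genes tested, where the other fits without 1 library called 0.608% to 1.61%. The cause was not tested. The sign of Scn2a, at -0.02 as reported, turned to 0.0081 with total-count size factors, which moved the median of all genes to 0.0264, and its range when 1 library was left out was -0.0956 to 0.0555, with values above 0 without L192P replicate 2 (0.0555), WT replicate 1 (0.0261) or WT replicate 4 (0.0261). Apart from Scn9a, Cacng5, Camk2d, Calm3 and the partner counts, the replicate block ended or added no call among the members and partners named. Few counts limit Scn4a, Scn10a, Scn11a, Cacna1f, Cacna1s and Stac3.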
